A study of Populus tremula with 16 samples.

Results

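In leaves of Populus tremula (European aspen), 309 gene IDs had a mean normalised value of at least 100 from late July to 1 October. Of these, 7 stayed within a 2-fold range, and they are described here as candidate reference genes. The members were chosen by their values in the authors' normalised table, counts divided by 1 factor per library. The rule left out 19 September, kept IDs with a mean of at least 100 over the other 15 libraries, and asked that the highest value be at most 2 times the lowest. It chose 7 of the 19769 IDs in that table, which is 2.27% of those that met the minimum mean. The 7 are Potri.014G025400, Potri.011G087200, Potri.011G091200, Potri.008G195900, Potri.008G100600, Potri.014G072300 and Potri.004G197400. Their steadiness in the normalised table is the rule itself and not a result, and no test was made of it. What the values add is how the 7 moved inside the limit, how far counting error accounts for that movement, and how the choice changed with the library scaling.

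Autumn senescence is the ordered breakdown of a leaf before it is shed, in which chlorophyll and much of the protein are taken apart and nitrogen is withdrawn into the stem. A reference gene is a transcript used as a yardstick for others, so its level should move little while the rest of the leaf's RNA changes. Sequencing libraries give relative abundance, and a level can be called steady only with respect to the scaling that puts the libraries on a common footing. In RNA of whole leaves, fewer cells of a type and less RNA per cell cannot be told apart. The files pair no ID with a gene name or function, so roles of the 7 IDs are not given, the labelled leaf tissue could not be checked against marker genes, and whether close copies of these genes shared their reads was not checked. The digits before the G in such an ID name the chromosome, and the 7 lie on 4 chromosomes, with 1 on chromosome 4, and 2 each on chromosomes 8, 11 and 14.

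The series followed 1 RNA library per date over 66 days of 2011, all from leaf, with no treatment and no control group. Dates of July and August are called early here (n = 4), those of 2 to 15 September middle (n = 6), and those from 18 September to 1 October late (n = 5 without 19 September). The labels do not say how many trees were sampled or whether leaves were pooled, and dates therefore stand in for replicates. Library totals ran from 719419 to 6729131 counts, and 4 libraries had fewer than 1200000 counts, on 11, 15 and 28 September and on 1 October. The library of 19 September held no ID with more counts than that of 18 September, of 18378 IDs with a count, and differed from it by less than the sampling noise, so both count as 1 sample.

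Steady IDs were rare among well-expressed ones. Over the 309 IDs with a mean of at least 100, the median of the highest value over the lowest was 18.0, with quartiles of 6.21 and 61.4, and 194 IDs (62.8%) ranged over more than 10-fold. The median coefficient of variation (the SD over the mean) of the 309 was 68.1%, where the 7 steady IDs had 14.2% to 22.8%. Of 203 IDs with a mean from 100 to 200, 5 were steady, and of 73 with a mean from 200 to 500, 2 were. Among the 33 IDs with a mean of 500 or more the smallest range was 2.27-fold, so none of the most abundant IDs met the limit.

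**Figure D1:**
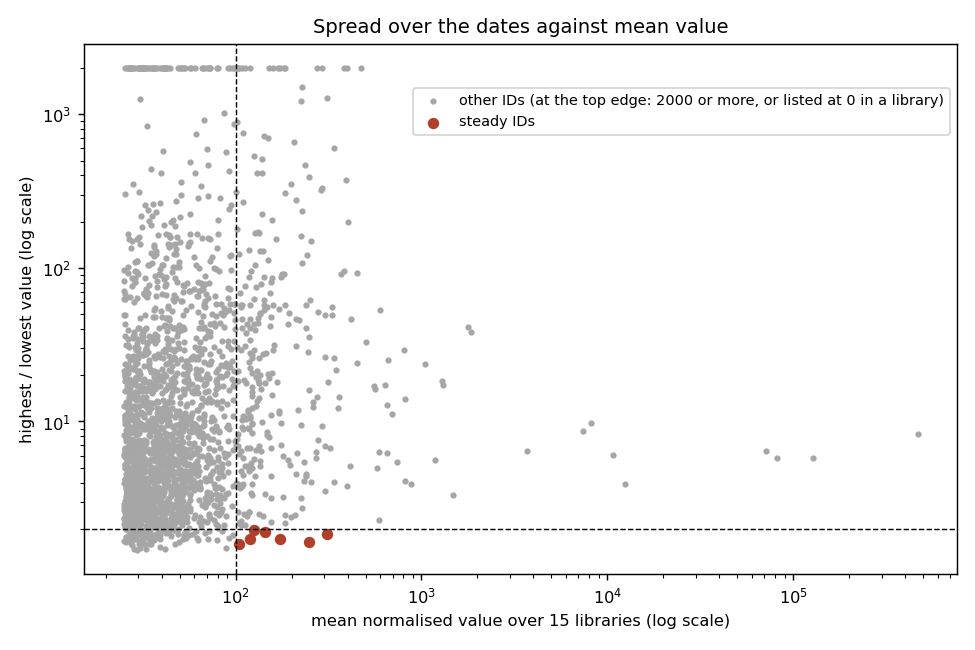
The highest value divided by the lowest over 15 libraries (vertical, log scale) is plotted against the mean normalised value (horizontal, log scale) for every ID with a mean of at least 25, and the dashed lines are the limits of the rule. The 7 steady IDs sit under the limit of 2 and to the right of 100, while the median ID with a mean of at least 100 ranges over 18.0-fold.

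Potri.014G025400 had the smallest range, 1.60-fold, and the smallest coefficient of variation, 14.2%. Its normalised value was 80.8 on 27 July, 98.0 on 5 August, 98.7 on 19 August and 115 on 31 August. The middle libraries ran from 97.2 through a median of 107 to 129, and the late ones stood at 127, 107, 102, 86.4 and 83.5 on 18, 22, 26 and 28 September and 1 October. The values formed a low arch, with the lowest ones at both ends of the series and the highest on 15 and 18 September. The period means were 98.1 ± 14.0 early (SD, n = 4), 111 ± 12.6 in the middle (SD, n = 6) and 101 ± 17.5 late (SD, n = 5), and all 3 ranges overlapped.

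Potri.011G091200 had the opposite shape, a shallow bowl with a 1.64-fold range. Its value was 311.5 on 27 July, 338 on 5 August, 262 on 19 August and 239 on 31 August. The middle libraries lay between 206 and 259 with a median of 209.7, and the late ones were 209, 210.3, 235, 269.5 and 310 in date order. The libraries of 27 July, 5 August and 1 October were the highest, and those from 11 to 22 September all lay between 206 and 210.3. The early mean was 288 ± 45.3 (SD, n = 4), the middle one 222 ± 21.7 (SD, n = 6) and the late one 247 ± 42.9 (SD, n = 5). The middle mean was 0.37 log2 units below the early one, the largest step of its kind among the 7.

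Potri.011G087200, on the same chromosome, had no sustained slope and moved from date to date over a 1.72-fold range. It stood at 143 on 27 July, 217 on 5 August, 198 on 19 August and 168 on 31 August, and the middle libraries ran from 127 through a median of 181 to 219. The late values were 144, 164, 134, 180 and 201. Its lowest and highest values were neighbours in time, on 13 and 15 September, and it was the 1 ID of the 7 with both extremes in the same period. The value of 15 September rests on 203 counts. The period means, 182 ± 32.4 (SD, n = 4), 178 ± 34.9 (SD, n = 6) and 164 ± 27.0 (SD, n = 5), differed by less than the spread within each period.

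Potri.008G100600 and Potri.008G195900, both on chromosome 8, shared a shape, with their highest late values from 18 to 28 September. Potri.008G100600 stood at 97.3, 132, 97.2 and 103 on the early dates, between 99.6 and 118 with a median of 112 in the middle, and at 167, 142, 168, 128 and 97.9 on the late dates. Potri.008G195900 stood at 101, 131, 107 and 114 early, between 87.3 and 141 with a median of 122 in the middle, and at 149, 145, 171, 161 and 97.0 late. Both were highest on 26 September, and on 1 October both stood near their lowest early value. Potri.008G100600 went from 107 ± 16.6 early (SD, n = 4) to 141 ± 29.2 late (SD, n = 5), a difference of 0.37 log2 units, and Potri.008G195900 from 113 ± 13.0 to 145 ± 28.5, a difference of 0.34. These were the 2 largest late-minus-early differences of the 7, and early and late values overlapped in both IDs. The lowest value of Potri.008G195900, on 11 September, rests on 71 counts, the fewest behind any value of the 7.

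Potri.004G197400 had the largest coefficient of variation, 22.8%, over a 1.86-fold range, and 2 high phases. It stood at 414 on 27 July and 403 on 5 August, and at 285 and 281 on 19 and 31 August. The middle libraries ran from 234 through a median of 262 to 353, and the late ones were 411.5, 367, 392, 257 and 223. The values of 18 to 26 September came close to those of 27 July and 5 August, and the lowest value of the series followed on 1 October. Its period means of 346 ± 72.9 early (SD, n = 4) and 330 ± 84.8 late (SD, n = 5) each average a high and a low phase.

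Potri.014G072300 alternated between higher and lower dates, over a 1.91-fold range. Its early values were 160.5, 137, 104 and 164, its middle ones lay between 113 and 189 with a median of 168, and its late ones were 131, 99.1, 114, 147 and 164. Its middle libraries stood at 2 levels, with 113 and 114 on 2 and 15 September and 162 to 189 on 5, 9, 11 and 13 September. From 22 September onward its values were in increasing order to 1 October, while those of both chromosome 8 IDs and of Potri.004G197400 were at their lowest late values on 1 October.

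**Figure D2:**
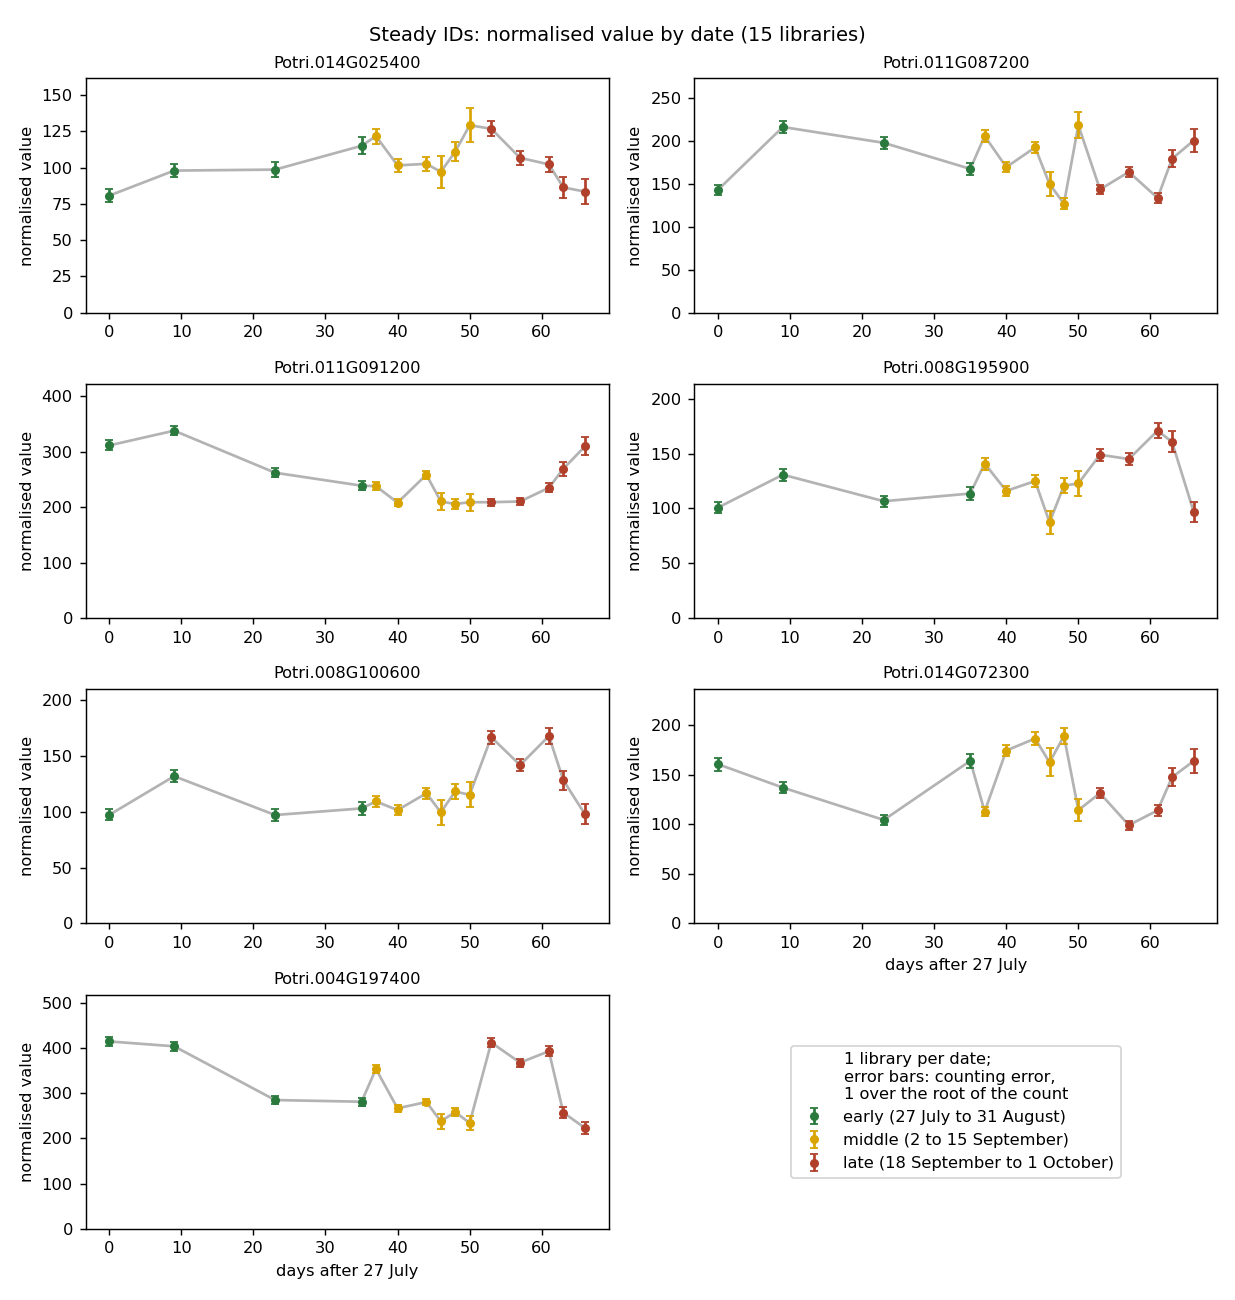
Normalised value (vertical, from 0) of each steady ID against days after 27 July (horizontal), 1 point per library, coloured by period, with error bars for counting error alone. Each panel stays within a 2-fold band, and the panels differ in shape, such as the arch of Potri.014G025400 (80.8 to 129) and the bowl of Potri.011G091200 (206 to 338).

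Counting error alone left most of this movement unaccounted for. The 15 values of an ID rest on 71 to 1949 counts, so the counting error of a single value ran from 2.27% to 11.9%. Potri.014G025400 had a coefficient of variation of 14.2% where counting alone gives 6.52%, so that counting made up 21.1% of its variance. In the other 6 IDs that share was 3.11% to 10.5%, and Potri.004G197400 had the lowest share. The remainder holds differences between dates, leaves and library preparations, which 1 library per date cannot separate. Reads of 1 molecule can be counted more than once where no molecular identifiers are used, and these errors and the intervals below cover counting error only.

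The limit of 2 cut through a continuous series of ranges. Just inside it lay Potri.008G195900 at 1.96, Potri.014G072300 at 1.91, Potri.004G197400 at 1.86, Potri.008G100600 at 1.73 and Potri.011G087200 at 1.72. Just outside it lay Potri.003G011600 at 2.04, Potri.002G160900 at 2.12, Potri.017G101100 at 2.13, Potri.001G148800 at 2.18 and Potri.016G091600 at 2.19. From the counts of the highest and the lowest library, the 95% exact (Clopper-Pearson) interval of the range was 1.53 to 2.54 for Potri.008G195900 and 1.56 to 2.70 for Potri.003G011600, so these neighbours across the limit were not told apart at this depth. The interval reached above 2 for 4 of the 7. It stayed below 2 for Potri.011G091200 (1.49 to 1.81), Potri.008G100600 (1.52 to 1.97) and Potri.014G025400 (1.29 to 1.98). Such intervals take the 2 extreme libraries as given and make no allowance for their having been picked out of 15.

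The early and the late libraries overlapped for all 7 IDs. Among the 309 IDs with a mean of at least 100 they did not overlap for 77.3%, a background from which nothing is read, because the rule used the same values. The late minus early difference was above 0 for 3 of the 7 and below 0 for 4, with a median of -0.08 log2 units and extremes of -0.23 in Potri.011G091200 and 0.37 in Potri.008G100600. A spline of the date was fitted to the raw counts with edgeR's quasi-likelihood test and Benjamini-Hochberg adjustment, and 62.9% of 15583 tested IDs changed at an adjusted p of 0.05. Of the 7, 0 were called, and 0 passed at an unadjusted p of 0.05. On simulated counts the same test recovered only 11 of 100 changes of 2-fold, so it would mostly miss changes within the limit. DESeq2's likelihood ratio test called 65.5% of all tested IDs and 2 of the 7, Potri.011G091200 and Potri.004G197400. This too is a description, since the libraries are those of the rule.

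Ratios between 2 IDs of the same library do not depend on any library scaling. The ratio of IDs that each stay within 2-fold can range more widely than 2-fold, as it did here for most pairs. Over the 21 pairs, the SD of the log2 ratio across the 15 libraries ran from 0.15 to 0.53. The smallest was that of Potri.008G195900 to Potri.008G100600, whose ratio had a median of 1.04 and lay between 0.877 on 11 September and 1.29 on 2 September. Counting error alone gives an SD of 0.13 for this pair, so little of its scatter was left over. The next was Potri.011G087200 to Potri.011G091200, with an SD of 0.27 where counting gives 0.0947, and a ratio from 0.461 on 27 July to 1.05 on 15 September. The largest was Potri.014G072300 to Potri.004G197400, with an SD of 0.53 and a ratio from 0.270 on 22 September to 0.735 on 1 October. Only 2 of the 21 pair ratios stayed within a 2-fold range, that of the chromosome 8 pair (1.47-fold) and that of Potri.014G025400 to Potri.008G100600 (1.84-fold).

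Averaged over its 6 partners, the SD of the log2 ratio was 0.34 for Potri.008G100600 and Potri.008G195900, 0.35 for Potri.014G025400, 0.37 for Potri.011G091200, 0.39 for Potri.004G197400 and Potri.011G087200, and 0.46 for Potri.014G072300. The averages of both chromosome 8 IDs include the SD of 0.15 of their own pair, so their place before the next 2 IDs rests on that pair. Potri.014G072300 had the loosest ratios to the others. In the normalised table the geometric mean of all 7 varied 1.31-fold, between 11 September and 5 August, which is less than any single ID. Averaging IDs that were each chosen to stay within 2-fold in that table tends to narrow the range.

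**Figure D3:**
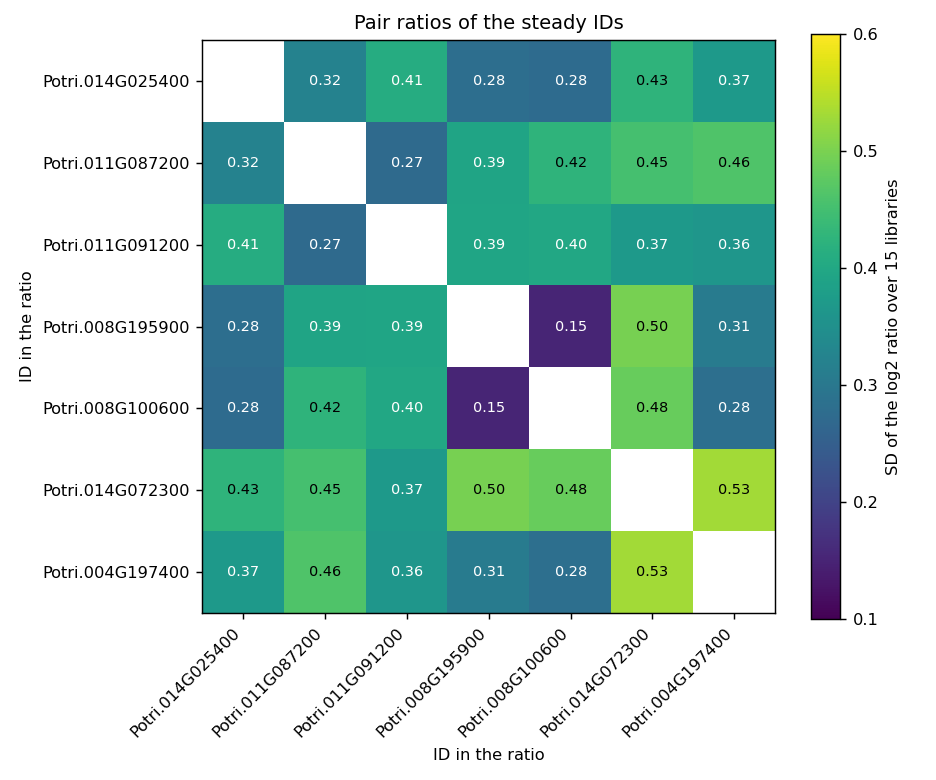
Each cell gives the SD over 15 libraries of the log2 ratio between the row's and the column's ID, a measure free of library scaling. The chromosome 8 pair stands out at 0.15, and the row of Potri.014G072300 holds the widest ratios, up to 0.53.

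Which IDs counted as steady depended on how the libraries were scaled. Besides the authors' factors, 5 scalings of the raw counts were applied with the same limits, each set to the same average level. They were the trimmed mean of M values (TMM) of the 15 libraries, relative log expression, the upper quartile, library totals alone, and library totals without the 10 most abundant IDs. TMM chose the same 7 IDs, 2.25% of those with the minimum mean under it, and its factors stayed between 0.970 and 1.03 times the authors'. By inference from the values, the authors' factors are themselves TMM factors of all 16 libraries. This near match was therefore fixed in advance and is no separate support. Relative log expression chose 3.54%, which were 6 of the 7 and 5 others, and the ID it lost was Potri.014G072300, at 2.04-fold. The upper quartile chose 3.05% and kept 3, Potri.011G091200, Potri.008G195900 and Potri.008G100600, and took in 6 others. Its factor is coarse in shallow libraries, as it rests on 11 counts on 11 September.

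Library totals chose 0.546% of the IDs with the minimum mean and kept 0 of the 7. Relative to the authors' factors, those of the totals were 1.47 to 1.52 times as large in early libraries and 0.628 to 0.903 times as large in late ones. On that scale every one of the 7 was higher in late leaves, with a median difference of 0.87 log2 units. A change of factors moves the mean log2 difference of every ID by the same amount. For IDs chosen as steady, this direction therefore follows from the factors. Their ranges ran from 2.46-fold in Potri.004G197400 to 3.74-fold in Potri.014G072300. As a plain share of all counts, the 7 together held 0.0757% on 19 August (95% Wilson interval 0.0736 to 0.0780%) and 0.184% on 1 October (0.175 to 0.194%). The 2 IDs that met the limits under library totals were Potri.006G134200 and Potri.014G186000. Both were lower in late leaves in the normalised table, by -1.25 and -0.76 log2 units, as IDs level under those factors tend to be.

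Totals without the 10 most abundant IDs chose 2.94% and also kept 0 of the 7. These totals tilted the 7 the opposite way, each ID by the same amount as the other members. Their factors were 1.63 and 1.69 times the authors' on 28 September and 1 October, and the late minus early difference in mean log2 value had a median of -0.46 over the 7 IDs. For 5 of them it was between -0.60 and -0.34. Both chromosome 8 IDs were nearly level there, with differences of -0.04 in Potri.008G195900 and -0.005 in Potri.008G100600. They had started from the highest differences in the normalised table, 0.34 and 0.37, and moved as far as the others. Their plain late means of 121 and 119.5 were above the early ones of 117 and 111.5. Potri.011G091200 came closest to the limit there, at 2.09-fold, and Potri.004G197400 was farthest, at 3.30-fold. The 8 IDs that met the limits instead were all higher in late leaves in the normalised table, by 0.15 to 0.86 log2 units. IDs level under these factors tend to that direction whatever the gene. The median of all 15583 tested IDs moved as well, with a late minus early difference of -0.06 log2 units under the authors' factors, 0.72 under library totals and -0.35 under totals without the 10 most abundant IDs (with 1 added to each value before the log). No control of known amount is among the values used here, so which of these scalings is nearest to RNA per leaf was not tested.

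**Figure D4:**
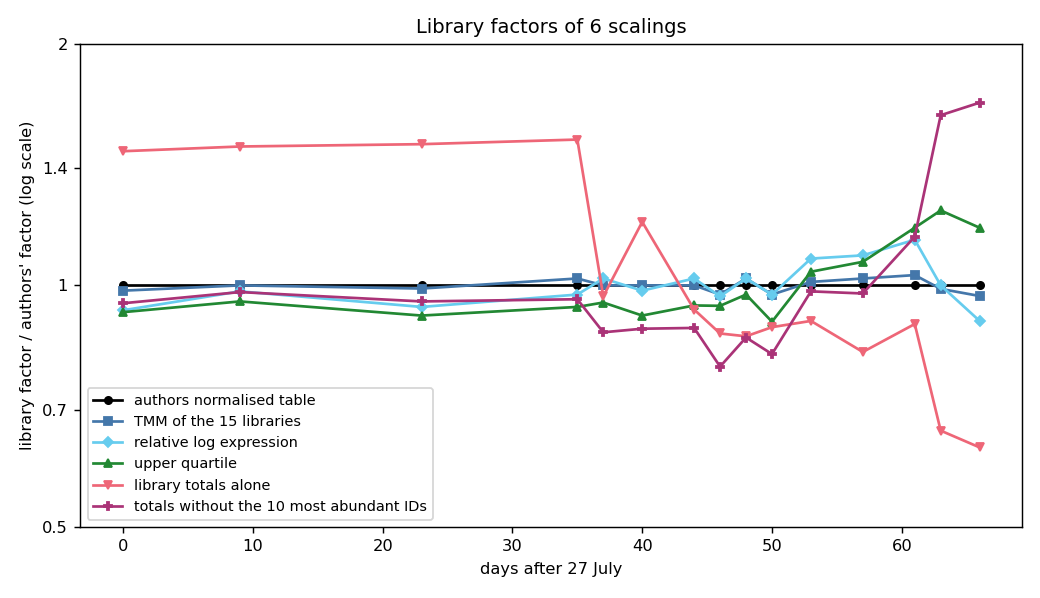
Library factor of each scaling divided by the authors' factor (vertical, log scale) against days after 27 July (horizontal), 1 point per library. TMM stays within 0.970 to 1.03, library totals run from 1.52 early to 0.628 late, and totals without the 10 most abundant IDs reach 1.69 on the last date.

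Across the 6 scalings, 23 IDs were steady under at least 1 of them and 0 under all 6. The most that any ID met was 4, and 3 IDs were steady under all scalings but those by totals: Potri.011G091200, Potri.008G195900 and Potri.008G100600. Their ranges over these 4 scalings lay between 1.51-fold and 1.96-fold. Of these 4, the authors' factors are those of the rule, and TMM of the 15 libraries nearly repeats them. Only relative log expression and the upper quartile add other methods. Potri.014G025400 missed the upper quartile narrowly, at 2.07-fold. The geometric mean of the 7 IDs stayed within 1.27-fold to 1.49-fold under these 4 scalings, and ranged over 2.52-fold under library totals and 2.14-fold under totals without the 10 most abundant IDs. With either kind of total a single ID ranged less, Potri.004G197400 at 2.46-fold and Potri.011G091200 at 2.09-fold in that order.

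**Figure D5:**
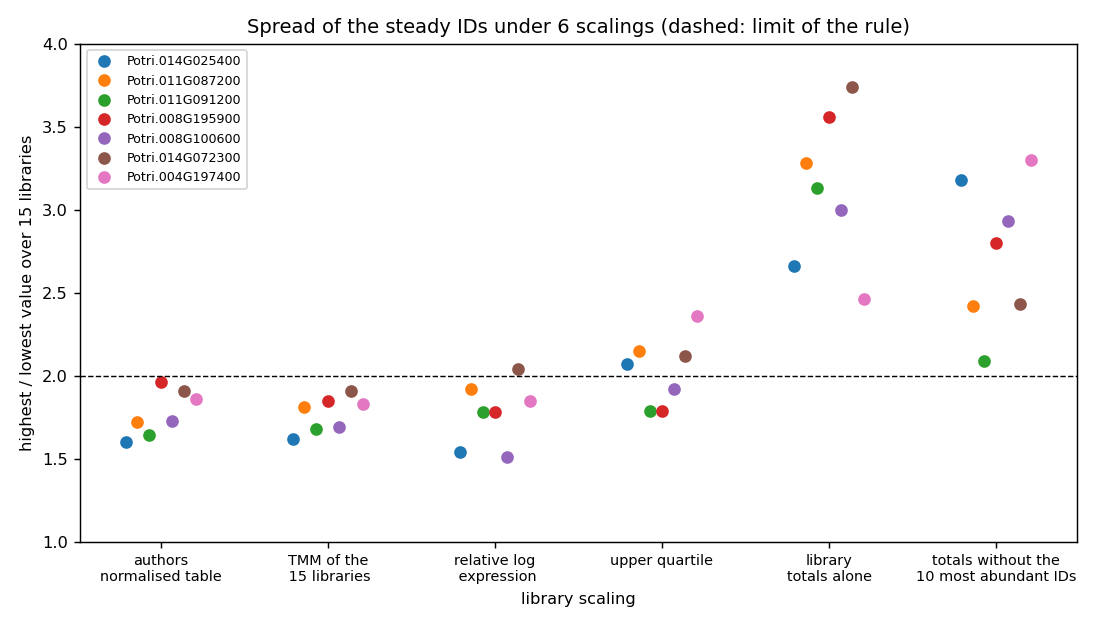
Highest over lowest value across 15 libraries (vertical) for each steady ID (colour) under 6 scalings (horizontal), with the limit of 2 dashed. All 7 IDs are under the limit with the authors' factors and TMM, 6 are under it by relative log expression, 3 by the upper quartile and 0 with either kind of library total.

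Single libraries kept further IDs out of the group. Leaving out any 1 of the 15 libraries kept all 7 IDs, as it must for a limit on the range unless the mean drops below the minimum. Without 1 October, 12 IDs met the limits, and without 26 September 10 did. Without 11 September the number was 9, without 31 August or 18 September it was 8, and without any other library it stayed at 7. Without both 28 September and 1 October, 25 IDs met the limits, 18 of them outside the 7. Both of those dates had under 1200000 counts, and without all 4 such libraries 30 IDs met the limits.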

How the data were processed

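Per the labels' protocols, total leaf RNA was purified on a silica column kit and made into Illumina TruSeq RNA libraries. STAR 2.4, HTSeq, Trimmomatic 1.0, FastQC 1.0 and CASAVA 1.8.2 are named in the submitters' processing notes. Settings, genome build and annotation are not given in the sources used. The authors deposited raw counts for 41335 IDs, and 16 single files that held the same counts. They also deposited a normalised signal, each count divided by 1 factor per library, for 19769 IDs. Times its factor, 99.98% of its values were whole within 0.01, and edgeR's TMM over all 16 libraries gave the factors within 8.5e-06%, an inference from the values. A count test on those recovered reads called 9807 IDs, as did the raw counts. Those reads are in effect the raw counts again, so this checks the recovery and is no separate support.

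The rule was applied to the normalised signal, and other scalings to the raw counts, each set to the geometric mean of the authors' factors. The time course was fitted with edgeR 4.0.16 in R 4.3.3 (filterByExpr with a minimum count of 10 and a minimum total of 15, TMM, glmQLFit and glmQLFTest, a natural cubic spline with 3 degrees of freedom over the days). DESeq2 1.42.0 was the alternative. On simulated counts for 14937 IDs, that time course recovered 78 of 100 changes of 4-fold and 11 of 100 of 2-fold. All other simulated IDs were left unchanged, unlike the data, and the scatter was the same for every ID. Its p-values rest on the scatter between single dates, and dependence between neighbouring dates, which would make them too small, was not tested. The 7 IDs and all lists were chosen with earlier results of these data known. IDs were named as all members and the 5 nearest outside the limit, and IDs that met the limits under another scaling were named after their values were seen. Product-name lists, promoters and sequences were not used, as the files do not annotate the IDs.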

Additional observations from a re-analysis of the deposited data

Results flagged for a closer look

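In 21 groups, each made of 1 steady ID in 1 period, 1 library lay farther from its neighbour than Dixon's 95% limit allows, where chance gives about 1 in 20. Potri.008G100600 stood at 132 (from 587 counts) on 5 August, and the nearest other early library had 103. The gap was 0.830 of the range of the 4 early libraries, just past the limit for 4 samples. On that date 3 more of the 7, Potri.008G195900, Potri.011G087200 and Potri.011G091200, also had their highest early value, and the geometric mean of the 7 was at its highest of the series.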

How the results depend on the processing

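The number of steady IDs was 7. It was 11 under relative log expression and 2 under library totals, and 7 to 12 without 1 library at a time. A minimum mean of 50 or 200 gave 25 or 2, and a limit of 1.5 or 3 times gave 0 or 27. A coefficient of variation of at most 20% gave 7, of which 5 were members and 2 were others. The members lost were Potri.004G197400 at 22.8% and Potri.014G072300 at 20.9%. Adding 10 to each value gave 10 IDs. Thinning every library to the shallowest depth left 4, all of them members; the 3 lost, Potri.008G195900, Potri.008G100600 and Potri.014G072300, were then at 2.29, 2.01 and 2.01-fold. Chosen after the data were examined, leaving out the 4 libraries under 1200000 counts gave 30, and leaving out 28 September and 1 October gave 25; fewer libraries can only widen such a choice at a given mean. The median late minus early difference of -0.08 log2 units became -0.37 under the upper quartile, 0.87 under library totals and -0.46 under totals without the 10 most abundant IDs, and 0.23 or 0.20 for the IDs chosen with a minimum mean of 50 or a limit of 3 times. With that last limit the median SD of log2 pair ratios was 0.435 in place of 0.37, and it was 0.35 to 0.38 without 1 library at a time. Of the 7, 0 were called over the day, beside 62.9% of all tested IDs. Relative log expression, the upper quartile and all 16 libraries called 1 each, beside 63.8%, 65.5% and 66% of all tested IDs, and DESeq2 called 2, beside 65.5%. Library totals called 5, a share near the 70.6% of all tested IDs. Leaving out 1 library called 0 each time. The late minus early shift of the 7 under other scalings follows from the factors, and the cause of the other shifts was not tested. No paired analysis was possible because the labels carry no replicate numbers, with 1 library per date.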

Other observations

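Among less abundant IDs, a larger share was steady. With a mean from 25 to 50, 86 of 1394 IDs (6.17%) stayed within 2-fold, and with a mean from 50 to 100, 18 of 549 (3.28%) did. In these classes the median range was 5.92-fold and 9.46-fold, against 18.7-fold with a mean from 100 to 200 and 31.0-fold from 200 to 500. The median of the lowest count of an ID was 15, 23, 30 and 46 in these 4 classes. Above 500 the median range was 8.69-fold over 33 IDs.

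A choice by pair ratios gave a different group. Pair ratios need no library scaling, but the IDs that entered were limited by their mean in the normalised table. From 299 IDs with a mean of at least 100 and a count in every library, the ID with the largest mean SD of log2 pair ratios was removed in turn until 7 remained, a procedure chosen after the data were examined. The mean SD of log2 ratios within this group was 0.18 to 0.26, a value fixed low by the way it was chosen. Both groups hold Potri.008G100600 and Potri.008G195900, which are 2 of the 7 in each. In the normalised table the 7 IDs of this choice were all higher in late leaves, by 0.34 to 1.00 log2 units, and ranged over 1.73-fold to 3.18-fold. Against all 299 IDs, the mean SD of log2 ratios of the 7 steady IDs ran from 1.36 to 1.46. Potri.008G100600 was at rank 1 from the smallest, Potri.008G195900 at 4, Potri.014G025400 at 13 and Potri.004G197400 at 25. Potri.011G087200 was at 42, Potri.011G091200 at 44 and Potri.014G072300 at 58. IDs chosen for a small range in these same libraries tend to low ranks, so the ranks are a description and no separate support.

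By its counts, the library of 19 September appears to hold part of the reads of 18 September, though reads were not compared. For the 7 steady IDs it gave normalised values of 0.852 to 0.980 times those of 18 September, all of them lower. Potri.008G100600 stood at 142 against 167, from 180 counts, and Potri.011G091200 at 205 against 209.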
